A study of Mus musculus with 6 samples.

Results

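The clustered replication-dependent histone genes were taken as every row of the deposited count table whose symbol starts with Hist1h, Hist2h, Hist3h or Hist4h. The rule found 68 genes among 23453 gene rows. By class they were 6 linker histone H1 genes, 18 H2A, 19 H2B, 12 H3 and 13 H4 genes, and by cluster 54 lay in Hist1, 10 in Hist2, 3 in Hist3 and 1 in Hist4. The study took splenocytes from wild-type OT1 mice on the C57BL/6 strain, a line with a transgenic CD8 T cell receptor against a peptide of ovalbumin (OVA). The cells were kept with OVA peptide for 48 hours and then in 1 of 2 media for 8 hours. The 3 TCM libraries and the 3 FCM libraries thus share genotype, strain, peptide and times, and differ by the medium, whose abbreviations the labels do not spell out. The labels name the cells cytotoxic T lymphocytes (CTLs) and do not mention a sort after the culture. They do not say whether replicates came from separate mice or cultures, so p-values cover only the differences among these libraries, possibly technical ones.

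The titles of the deposited files contradict each other on which library is which. The count table, like the sample titles, calls the FCM libraries Vehicle, and its titles are used throughout. In the deposited normalized table, all 6 columns are scaled copies of count columns that carry the opposite group name, with replicate numbers kept. Under the normalized table's titles every direction given here is turned round, with 1 histone gene higher and 14 lower in TCM. Nothing in the files or labels settled which titles are right.

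Replication-dependent histone genes supply most of the histone protein that packages new DNA in S phase, when their mRNAs accumulate. H2A, H2B, H3 and H4 form the nucleosome core, and H1 binds the DNA that links nucleosomes. The genes sit in clusters, mostly lack introns, and make mRNAs that normally end just after a conserved hairpin in place of a poly(A) tail. The stem-loop binding protein SLBP holds this hairpin and leads the mRNA through processing, translation and decay. How the RNA was selected for sequencing is not given in the sources used here, and a poly(A) selection would capture such mRNAs poorly.

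The hairpin is shown first because it is what the family shares and the selection by symbol did not use. The search took only hairpins of a set form. These had a 6-base stem that starts with GG and goes on mostly in C or T, a 4-base loop that starts with T, and the matching stem. Such a hairpin lay within 100 bases after the stop codon in 46 of the 68 members, by gene models of GENCODE M21 on GRCm38. Hairpins of other forms were not searched for. The same search found one in 5 of 21695 other protein-coding genes, or 0.023%, among them the replication-linked variant gene H2afx. The search cannot find a hairpin where a gene model ends before it. In the following sequences, read 5′ to 3′ on the gene's strand, capitals mark the paired stem and lower case the loop.
Hist1h1c, chr13:23739512-23739527, + strand: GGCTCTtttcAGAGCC
Hist3h2a, chr11:58955172-58955187, + strand: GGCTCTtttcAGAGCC
Hist1h2bj, chr13:22043638-22043653, + strand: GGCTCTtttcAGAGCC
Hist1h3a, chr13:23761890-23761905, - strand: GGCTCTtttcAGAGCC
Hist2h3c1, chr3:96247327-96247342, + strand: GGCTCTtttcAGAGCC
Hist1h4d, chr13:23581950-23581965, + strand: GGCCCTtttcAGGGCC
The stem that begins GGCTCT was in each hairpin found in H1 (4 genes), H2A (11), H2B (10) and H3 (9). The 12 hairpins of H4 began with GGCCCT in 10 genes and GGTCCT in 2 genes. Hist1h3a was higher and Hist2h3c1 lower in TCM libraries, as given below with the other H3 genes, and their hairpins hold the same 16 bases.

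Total counts ran from 17166687 to 25789381 per library, and the ribosomal precursor row Rn45s took 11.2% to 18.9% of them. The 68 genes together held 9000 counts, of which 4 genes held 56.3%, so most members rest on few reads. Replicate 1 stood apart in both groups. A chi-square per gene was 62.0 to 110 in pairs of libraries that held replicate 1, against 7.48 between TCM replicates 2 and 3 and 5.08 between FCM replicates 2 and 3. TCM replicate 1 was the lowest TCM library in 20 of the 24 tested histone genes, against 38.5% of all tested genes. FCM replicate 1 was the lowest FCM library in 16 of 24, against 40.7% of all tested genes.

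Summed histone mRNA was higher in TCM libraries in all 5 classes. Levels are given as counts-per-million (CPM) of TMM-scaled library size, and a sum over a class does not depend on how reads were split among near-identical genes of that class, although reads left uncounted would be missing from it. All 68 genes together had 72.2, 119 and 122 CPM in TCM replicates 1, 2 and 3, against 38.6, 51.5 and 55.3 CPM in FCM replicates 1, 2 and 3. The lowest TCM library lay above the highest FCM library, and the ratio of means was 2.16. In a bulk sample, fewer cells of a type and less RNA per cell cannot be told apart.

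H4 had the highest ratio of the classes. Its sum was 9.95, 20.4 and 21.2 CPM in TCM libraries, against 3.54, 4.86 and 5.82 CPM in FCM libraries, a ratio of 3.63. H3 summed to 4.79, 10.3 and 12.8 CPM in TCM libraries and to 2.81, 4.71 and 3.18 CPM in FCM libraries, a ratio of 2.61. The H3 groups nearly touched, at TCM replicate 1 and FCM replicate 2. Without Hist2h3c1, which went the other way and held 29.9% of H3 counts, the H3 ratio was 6.68. H1 summed to 25.2, 39.6 and 35.7 CPM in TCM libraries, against 10.8, 15.6 and 17.9 CPM in FCM libraries, a ratio of 2.27. Hist1h1c alone held 54.2% of these counts, and the ratio without it was 1.42. H2A reached 20.3, 31.8 and 35.0 CPM in TCM libraries, against 12.4, 15.5 and 16.8 CPM in FCM libraries, a ratio of 1.94. This sum was mostly 1 gene, since Hist3h2a held 89.7% of its counts, and the other H2A genes gave a ratio of 3.78. H2B had the lowest ratio, 1.47, with 11.9, 16.8 and 17.5 CPM in TCM libraries against 8.98, 10.8 and 11.6 CPM in FCM libraries.

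No class overlapped between the groups, whether scaled by TMM, by library totals or by DESeq2's size factors. Scaling by library totals lowered the ratios to between 1.25 for H2B and 3.05 for H4. It also lowered the median log2 difference of all tested genes by 0.21. Without both replicate 1 libraries the ratios ran from 1.53 for H2B to 3.90 for H4.

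**Figure D1:**
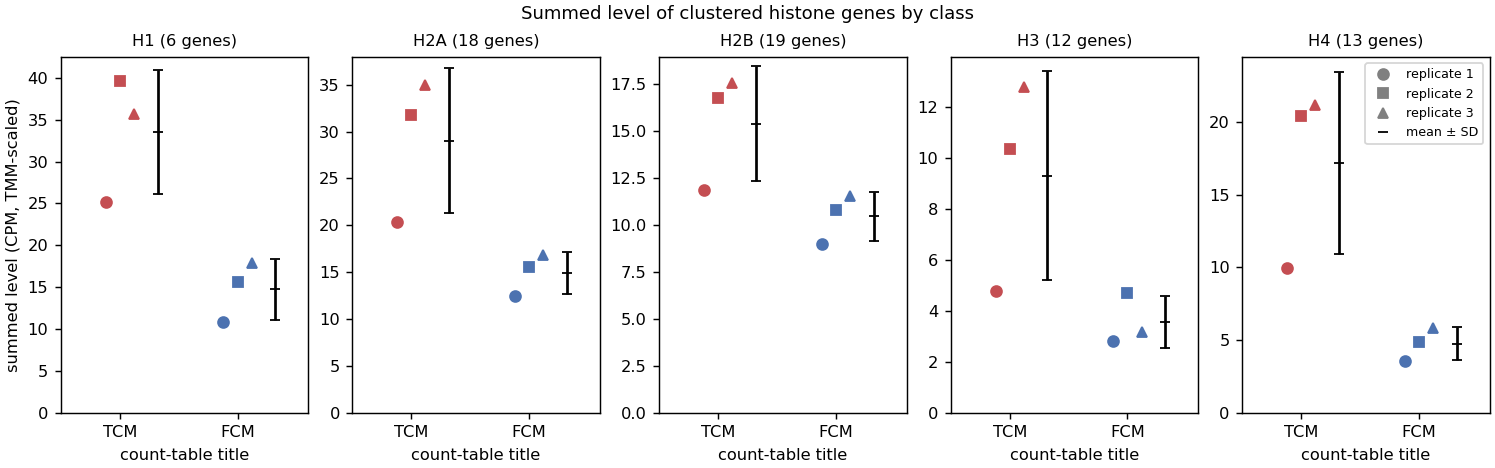
Summed level of the histone genes of each class, in CPM of TMM-scaled library size, in each TCM library (left in each panel) and FCM library (right). Markers give the replicate, bars the mean ± SD of 3 libraries; in H4 the TCM libraries lie at 9.95 to 21.2 CPM and the FCM libraries at 3.54 to 5.82 CPM.

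The clusters did not move alike. The main cluster Hist1, on chromosome 13, summed to 46.1, 82.0 and 81.3 CPM in TCM libraries, against 18.3, 26.7 and 29.9 CPM in FCM libraries, a ratio of 2.80. Hist1h1c held 28.1% of the Hist1 counts, and the ratio without it was 2.57. Of the 17 tested Hist1 genes, 12 rose, none fell and 5 did not pass the test. Over all genes tested, 28.8% rose and 30.0% fell. The filter on low counts, described below, bears on the counts of each cluster. Hist3, on chromosome 11, had 18.9, 28.8 and 31.6 CPM in TCM libraries, against 12.1, 15.1 and 16.1 CPM in FCM libraries, and both of its tested genes rose. Hist3h2a held 95.9% of the Hist3 counts, so this sum is mostly 1 gene. Hist2, on chromosome 3, had 5.80, 7.66 and 8.71 CPM in TCM libraries and 7.80, 9.54 and 8.84 CPM in FCM libraries. The Hist2 groups overlapped at a ratio of 0.85. Hist2h2be held 48.8% of the Hist2 counts, and the ratio without it was 0.86. Of 4 tested Hist2 genes none rose and 1 fell, too few to set against the share over all genes. With library totals the Hist2 ratio was 0.72 and the groups did not overlap. The only Hist4 gene is described with H4. The difference between clusters was not tested.

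**Figure D2:**
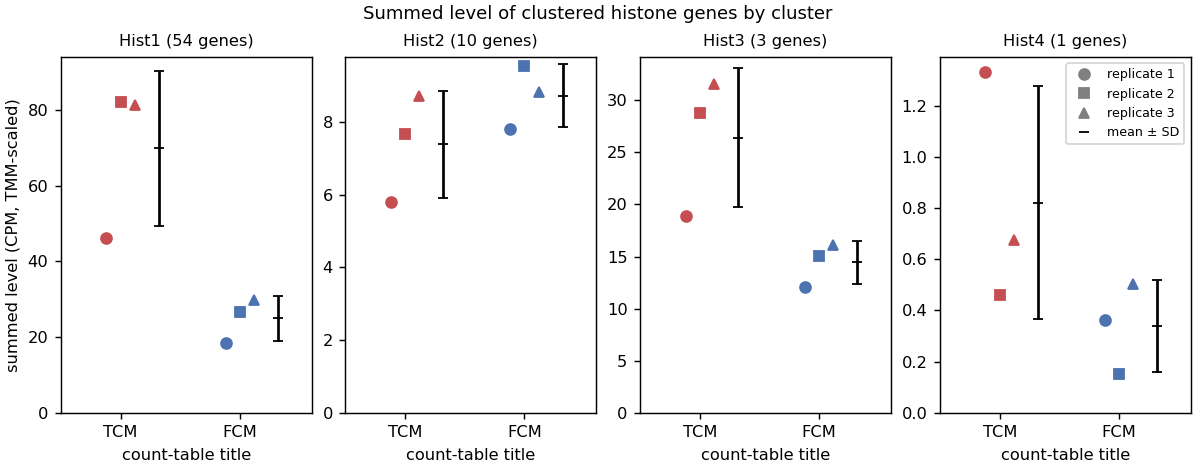
Summed level of the histone genes of each cluster, in CPM of TMM-scaled library size, in each TCM library (left) and FCM library (right), with mean ± SD of 3 libraries. TCM libraries lie above FCM libraries in Hist1 and Hist3, and the groups overlap in Hist2 and Hist4.

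Of the 68 genes, 24 had enough counts for edgeR's quasi-likelihood test, and 14 of these rose in TCM libraries, 1 fell and 9 did not pass an adjusted p of 0.05. Over all 12423 genes tested, 58.8% were called, 28.8% higher and 30.0% lower. The median log2 fold change of the 24 genes was 1.32, and that of all tested genes was -0.02. The filter on low counts bears on this count. Of the 14 genes that rose, 5 reached the minimum level in every library of both groups, and 9 reached it in every TCM library but not in every FCM library. These 9 were Hist1h2ai, Hist1h2bj, Hist3h2ba, Hist1h3a, Hist1h3c, Hist1h3e, Hist1h3f, Hist1h4b and Hist1h4c. The filter keeps a gene that is high in 1 group more readily than one that is low in both, so these counts and this median describe the tested genes and not the family. In 14 tested genes each TCM library lay above each FCM library, and in 3 each lay below, against 30.6% and 33.6% of all tested genes. Without both replicate 1 libraries 20 of 28 tested members rose and 1 fell, while 74.2% of all genes tested were called, 36.3% higher and 37.9% lower.

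Length moved with the result over the whole table. All tested genes were put in 5 bins of equal size by their longest transcript. The bin of shortest transcripts, up to 1901 bases, had a median log2 fold change of 0.43, and the bin of longest had -0.35. Of the 24 histone genes 18 were in the shortest bin. With this length trend removed, 14 of the 24 rose and 2 fell, against 29.0% higher and 29.1% lower among all genes tested and 58.1% called in all. Of the 14 genes that rose before, 13 kept their call, Hist3h2ba lost it and Hist1h1d gained one, and the part of length in single values was not tested further.

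**Figure D3:**
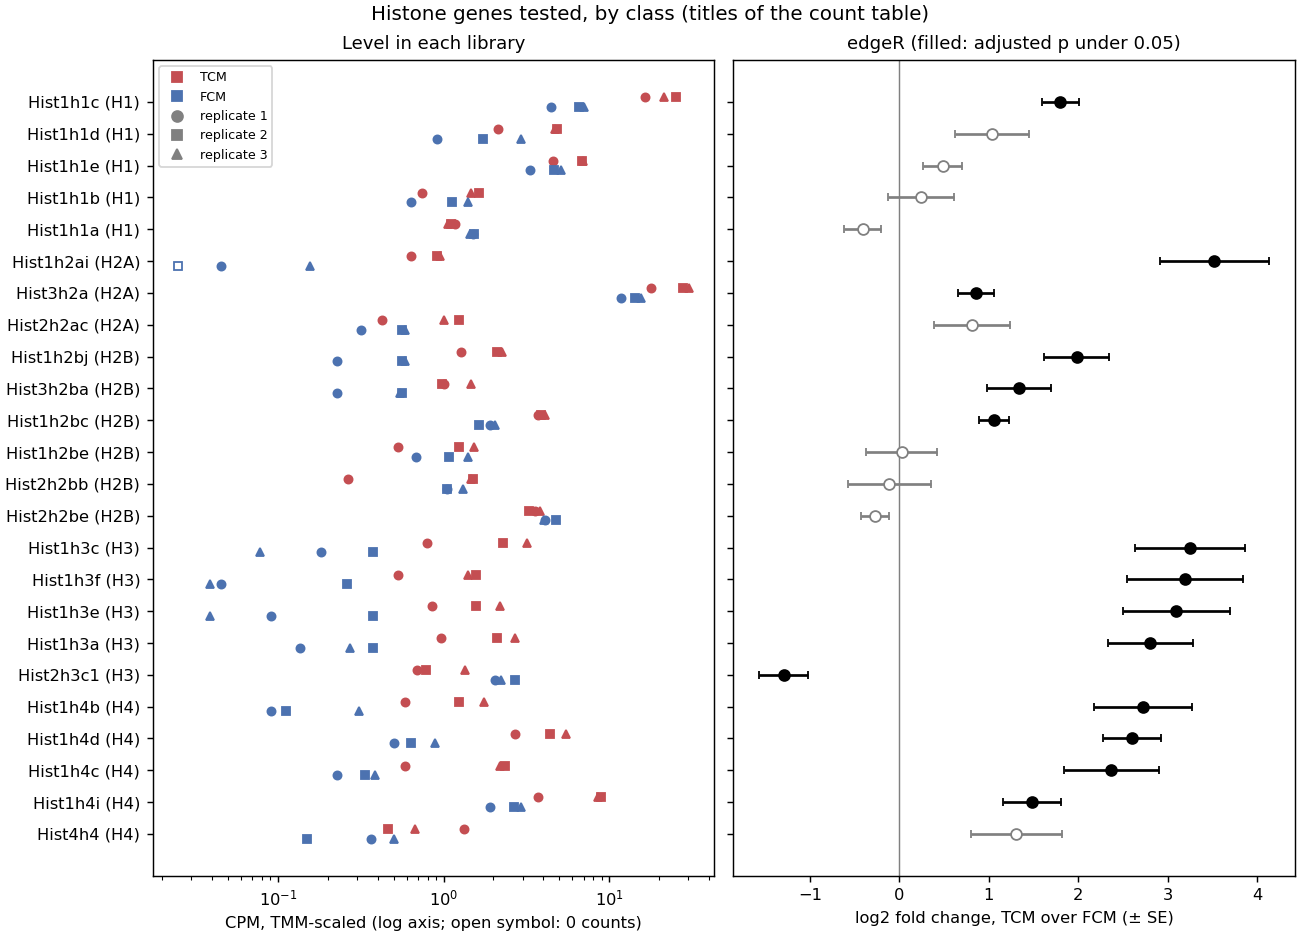
Left, level of each tested histone gene in each library, in CPM of TMM-scaled library size on a log axis, TCM drawn above FCM in each row, with an open symbol for 0 counts. Right, log2 fold change of TCM over FCM from edgeR with its standard error, filled where the adjusted p was under 0.05; 14 filled points lie right of 0 and 1, Hist2h3c1, lies left of it.

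Among the linker histones, Hist1h1c, the gene of subtype H1.2, was the one that rose. It is a gene of a single exon at chr13:23738808-23740367 in GENCODE M21, and 91.5% of its 50-base words occur nowhere else in the annotated transcripts. Its level was 16.5, 25.1 and 21.5 CPM in TCM libraries, against 4.45, 6.55 and 7.06 CPM in FCM libraries. The groups were far apart relative to their spread, at 21.1 ± 4.32 CPM in TCM and 6.02 ± 1.38 CPM in FCM (SD, n = 3 each). The log2 fold change was 1.80 ± 0.21 (SE, adjusted p = 0.000121). With its longest model as the length, Hist1h1c averaged 13.5 RPKM, a level scaled for length and depth, in TCM libraries and 3.86 RPKM in FCM libraries. Hist3h2a averaged 11.8 RPKM in TCM libraries and 6.49 RPKM in FCM libraries, and the other tested members had lower levels per length in TCM libraries.

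The other H1 genes did not pass the test. Hist1h1d, for subtype H1.3, had 2.13, 4.85 and 4.72 CPM in TCM libraries, against 0.908, 1.72 and 2.95 CPM in FCM libraries, a log2 fold change of 1.04 ± 0.42 (SE, adjusted p = 0.0566). TCM replicate 1 lay inside the FCM range. With the replicate number as a block, its adjusted p was 3.15e-07. Without TCM replicate 1 it was 0.00959, and without FCM replicate 3 it was 0.016. DESeq2 gave 0.0246, no filter on low counts 0.0308 and removal of the length trend 0.0267. That removal took as length the longest model of Hist1h1d, 7425 bases, which runs 4884 bases past the hairpin. The log2 fold change of Hist1h1d was 1.34 there, so this call depends on the model's length. Hist1h1e, for subtype H1.4, had 4.58, 6.88 and 6.91 CPM in TCM libraries, against 3.31, 4.64 and 5.08 CPM in FCM libraries. Its log2 fold change was 0.48 ± 0.22 (SE, adjusted p = 0.0817). The block gave an adjusted p of 0.00298, and leaving out TCM replicate 1 gave 0.0146. The span of Hist1h1e overlaps a model of Hist1h2be on the same strand, and reads there cannot be told apart.

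Hist1h1b, for H1.5, and Hist1h1a, for H1.1, showed smaller differences. Hist1h1b had 0.745, 1.64 and 1.46 CPM in TCM libraries and 0.635, 1.12 and 1.40 CPM in FCM libraries (log2 fold change 0.25 ± 0.37 SE, adjusted p = 0.584). The groups overlapped. Hist1h1a had 1.17, 1.11 and 1.07 CPM in TCM libraries, against 1.50, 1.53 and 1.43 CPM in FCM libraries (log2 fold change -0.41 ± 0.20 SE, adjusted p = 0.111). Each TCM library of Hist1h1a lay below each FCM library. With the length trend removed, Hist1h1a had a log2 fold change of -1.07 and an adjusted p of 0.00706. Hist1h1t, the testis form, had fewer than 10 counts.

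Of 3 tested H2A genes 2 rose, too few to set against the 28.8% of all tested genes that rose. Hist3h2a, at chr11:58954685-58956830, had 17.8, 27.8 and 30.1 CPM in TCM libraries, against 11.8, 14.4 and 15.5 CPM in FCM libraries. The groups did not overlap, and the log2 fold change was 0.85 ± 0.20 (SE, adjusted p = 0.00566). Its model overlaps that of Trim17 on the same strand. Of its 50-base words 98.0% are unique, with any word shared only with Trim17 still counted as unique. Reads in the overlap with Trim17 cannot be told apart. Hist1h2ai also rose, at a far lower level, with 12, 14 and 17 counts in TCM libraries against 1, 0 and 4 counts in FCM libraries. The 0 in FCM replicate 2 allows a level of up to 0.112 CPM at 3 counts. The log2 fold change of Hist1h2ai was 3.52 ± 0.61 (SE, adjusted p = 0.00119), the largest of the tested members. It was 2.93 without FCM replicate 2 and 4.97 without FCM replicate 3. In Hist1h2ai only 9.88% of the 50-base words are unique among annotated transcripts, leaving aside the model that overlaps it on the other strand. Its split from the near-identical H2A genes is thus uncertain. Hist2h2ac had 0.426, 1.24 and 1.01 CPM in TCM libraries and 0.318, 0.561 and 0.582 CPM in FCM libraries (log2 fold change 0.82 ± 0.42 SE, adjusted p = 0.125). Its groups overlapped through TCM replicate 1. The adjusted p of Hist2h2ac was 0.0353 with the replicate block and 0.0174 without TCM replicate 1.

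Of the tested H2B genes 3 rose and 3 did not pass the test, too few to set against the share over all genes. Over all genes tested, 28.8% rose, and in 30.6% each TCM library lay above each FCM library. Hist1h2bj had 24, 32 and 40 counts in TCM libraries, against 5, 15 and 15 counts in FCM libraries, and averaged 1.87 ± 0.52 CPM in TCM and 0.457 ± 0.199 CPM in FCM (SD, n = 3 each, log2 fold change 1.98 ± 0.36 SE, adjusted p = 0.00155). Hist1h2bc had 3.72, 3.86 and 4.10 CPM in TCM libraries, against 1.91, 1.65 and 2.06 CPM in FCM libraries (log2 fold change 1.06 ± 0.17 SE, adjusted p = 0.00072). Its libraries were close to each other within each group, at 3.90 ± 0.19 CPM in TCM and 1.87 ± 0.21 CPM in FCM (SD, n = 3 each). Hist3h2ba had 1.01, 0.982 and 1.46 CPM in TCM libraries, against 0.227, 0.561 and 0.543 CPM in FCM libraries (log2 fold change 1.34 ± 0.36 SE, adjusted p = 0.0107). None of these 3 genes overlapped between groups. With the length trend removed, Hist3h2ba had a log2 fold change of 0.62 and an adjusted p of 0.126, and Hist1h2bj one of 1.33 and an adjusted p of 0.00203.

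The other 3 tested H2B genes had values on both sides of 0. Hist2h2be, the H2B gene with the most counts, had 3.57, 3.27 and 3.82 CPM in TCM libraries and 4.08, 4.75 and 4.03 CPM in FCM libraries. Each TCM library was lower than each FCM library, at a log2 fold change of -0.27 ± 0.15 (SE, adjusted p = 0.156). Hist2h2bb had 0.266, 1.51 and 1.46 CPM in TCM libraries and 1.04, 1.05 and 1.32 CPM in FCM libraries (log2 fold change -0.11 ± 0.46 SE, adjusted p = 0.846). TCM replicate 1 alone lay below the FCM libraries, and without it the log2 fold change was 0.38. With the length trend removed and the replicate block it was -0.64 (adjusted p = 0.0468). Hist1h2be had 0.532, 1.24 and 1.52 CPM in TCM libraries and 0.681, 1.09 and 1.40 CPM in FCM libraries (log2 fold change 0.03 ± 0.40 SE, adjusted p = 0.959).

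The H3 genes held the only fall among the tested members. Of 5 tested genes, 4 in Hist1 rose and Hist2h3c1 in Hist2 fell. Over all genes tested, 28.8% rose and 30.0% fell, and 5 genes are too few to set against that share. The 4 that rose reached the filter's minimum level in every TCM library but not in every FCM library. They thus passed the filter through the group where they are high. Hist1h3a had 18, 32 and 48 counts in TCM libraries, against 3, 10 and 7 counts in FCM libraries. It averaged 1.92 ± 0.88 CPM in TCM libraries and 0.261 ± 0.119 CPM in FCM libraries (SD, n = 3 each), a log2 fold change of 2.80 ± 0.48 (SE, adjusted p = 0.00104). Hist1h3c had 15, 35 and 57 counts in TCM libraries, against 4, 10 and 2 counts in FCM libraries (log2 fold change 3.24 ± 0.62 SE, adjusted p = 0.00193). Hist1h3e had 16, 24 and 39 counts in TCM libraries, against 2, 10 and 1 counts in FCM libraries (log2 fold change 3.10 ± 0.60 SE, adjusted p = 0.00211). Hist1h3f had 10, 24 and 25 counts in TCM libraries, against 1, 7 and 1 counts in FCM libraries (log2 fold change 3.19 ± 0.65 SE, adjusted p = 0.0027). The share of unique 50-base words was 50.5% in Hist1h3a, 53% in Hist1h3c, 26.6% in Hist1h3e and 50.7% in Hist1h3f. Their split from near-identical H3 genes is thus uncertain. FCM replicate 2 was the highest FCM library in each of these 4 genes. Without it the log2 fold change was 3.99 for Hist1h3c, 4.48 for Hist1h3e and 4.59 for Hist1h3f. With the length trend removed it was 2.48 for Hist1h3c, 2.47 for Hist1h3e and 2.06 for Hist1h3a, with adjusted p-values of 0.000479 to 0.00216.

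Hist2h3c1 fell in TCM libraries. It had 13, 12 and 24 counts in TCM libraries, against 45, 72 and 57 counts in FCM libraries, that is 0.692, 0.786 and 1.35 CPM in TCM and 2.04, 2.69 and 2.21 CPM in FCM. The groups did not overlap, at a log2 fold change of -1.29 ± 0.28 (SE, adjusted p = 0.00358). Its model at chr3:96246685-96248509 runs 1167 bases past the hairpin and overlaps the model of Gm20634 on the same strand. Hist2h3c2, its neighbour in the same cluster, had 5, 2 and 4 counts in TCM libraries and 5, 5 and 4 counts in FCM libraries, with an adjusted p of 0.815 in a fit of all rows with 10 or more counts.

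Of 5 tested H4 genes 4 rose, too few to set against the share over all genes. Over all genes tested, 28.8% rose, and in 30.6% each TCM library lay above each FCM library. Hist1h4d, at chr13:23581598-23582735, had 2.71, 4.39 and 5.45 CPM in TCM libraries, against 0.499, 0.636 and 0.892 CPM in FCM libraries. The groups were well apart, at 4.18 ± 1.38 CPM in TCM and 0.676 ± 0.199 CPM in FCM (SD, n = 3 each). The log2 fold change of Hist1h4d was 2.60 ± 0.32 (SE, adjusted p = 0.000177), and 89.8% of its 50-base words are unique. Hist1h4i, the H4 gene with the most counts, had 3.72, 8.97 and 8.60 CPM in TCM libraries, against 1.91, 2.66 and 2.95 CPM in FCM libraries (log2 fold change 1.48 ± 0.32 SE, adjusted p = 0.004). Hist1h4c had 0.585, 2.36 and 2.19 CPM in TCM libraries, against 0.227, 0.337 and 0.388 CPM in FCM libraries (log2 fold change 2.37 ± 0.53 SE, adjusted p = 0.0045). With the length trend removed these were 0.76 for Hist1h4i and 1.71 for Hist1h4c, with adjusted p-values of 0.00577 and 0.00454. Hist1h4b had 11, 19 and 31 counts in TCM libraries, against 2, 3 and 8 counts in FCM libraries (log2 fold change 2.72 ± 0.55 SE, adjusted p = 0.00274, and 3.45 without FCM replicate 3). None of these 4 genes overlapped between groups. The share of unique 50-base words was 71.1% in Hist1h4i, 80.4% in Hist1h4c and 45.4% in Hist1h4b. Hist4h4, alone in its cluster on chromosome 6, had 1.33, 0.458 and 0.674 CPM in TCM libraries and 0.363, 0.150 and 0.504 CPM in FCM libraries. Its groups overlapped, at a log2 fold change of 1.31 ± 0.51 (SE, adjusted p = 0.0522). The adjusted p of Hist4h4 was 0.00555 with the replicate block, 0.0399 without FCM replicate 3 and 0.0423 without TCM replicate 2. It was also under 0.05 with DESeq2's size factors (0.0467), with DESeq2 (0.0376) and with no filter (0.0468).

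Another 21 members had 10 or more counts over the 6 libraries and fell below the level tested. A fit of the 14285 rows with 10 or more counts called 25 of 45 histone genes higher and 1 lower, against a background of 26.5% higher and 27.4% lower, and 53.8% in all. Of the 21 genes, 11 rose in that fit and none fell, with adjusted p-values from 0.00713 to 0.0403. Among H3 genes, Hist1h3g had 5, 14 and 8 counts in TCM libraries against 0, 4 and 2 counts in FCM libraries. Hist1h3i had 2, 6 and 9 counts in TCM libraries against 0, 1 and 0 counts in FCM libraries. Hist1h3h had 1, 3 and 7 counts in TCM libraries against 0, 1 and 1 counts in FCM libraries. Each of these 3 genes was called, with FCM libraries near 0. Among H4 genes, Hist1h4h had 3, 23 and 18 counts in TCM libraries against 2, 9 and 5 counts in FCM libraries, Hist1h4a had 3, 8 and 5 counts in TCM libraries against 2, 1 and 1 counts in FCM libraries, and Hist1h4f had 5, 2 and 9 counts in TCM libraries against 0, 2 and 1 counts in FCM libraries. The TCM libraries of Hist1h4h ranged widely and overlapped those of FCM.

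Among the H2A genes of this level, Hist1h2ag had 4, 6 and 17 counts in TCM libraries against 1, 0 and 4 counts in FCM libraries. Hist1h2ak had 12, 8 and 8 counts in TCM libraries against 2, 6 and 3 counts in FCM libraries. Hist1h2ae had 7, 1 and 10 counts in TCM libraries against 1, 2 and 2 counts in FCM libraries. All 3 were called higher, although the libraries of Hist1h2ae overlapped. Of H2B genes, Hist1h2bb had 5, 15 and 14 counts in TCM libraries against 4, 7 and 4 counts in FCM libraries, and Hist1h2bm had 8, 15 and 12 counts in TCM libraries against 4, 3 and 8 counts in FCM libraries, both called higher. The 10 genes not called were Hist1h2ac, Hist1h2an, Hist1h2bg, Hist1h2bh, Hist1h2bk, Hist1h2bn, Hist2h3b, Hist2h3c2, Hist1h4k and Hist2h4. Their summed counts ran from 7 to 22 in TCM libraries and from 3 to 20 in FCM libraries. In Hist2h3b and Hist1h2an each TCM library lay above each FCM library in CPM. The edgeR fit of rows with 10 or more counts gave them adjusted p-values of 0.0518 and 0.0869. In the others the groups overlapped.

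**Figure D4:**
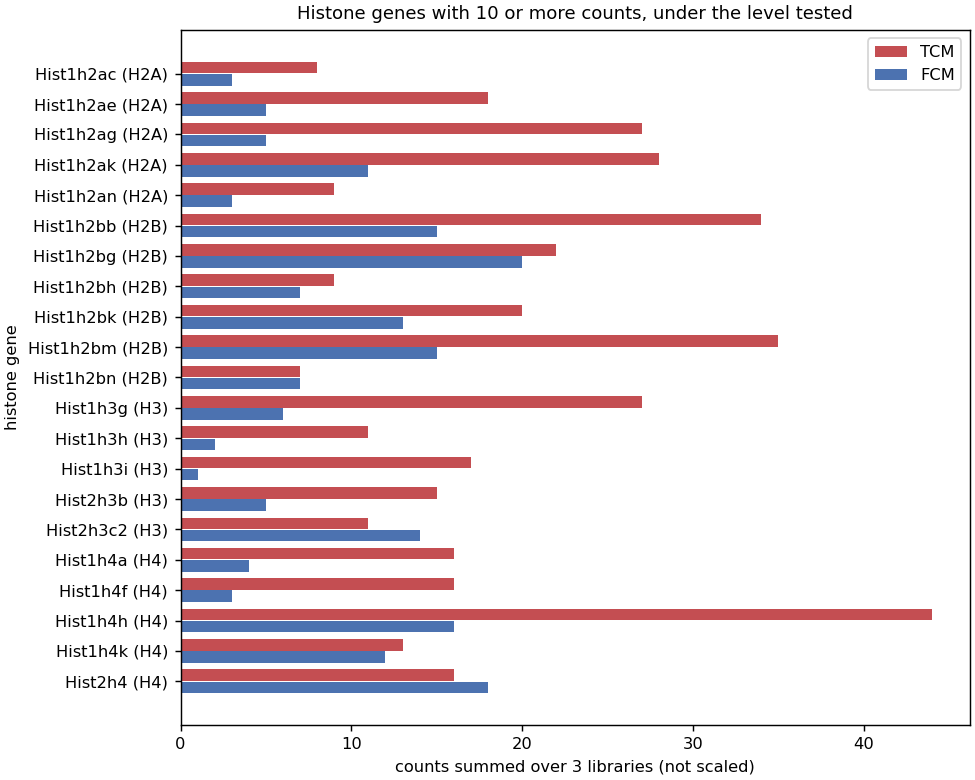
Counts summed over 3 libraries, not scaled, of the 21 histone genes with 10 or more counts in all that were below the level tested, TCM above FCM for each gene. Hist1h4h has 44 counts in TCM and 16 in FCM libraries, and Hist1h3i has 17 in TCM and 1 in FCM libraries.

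The remaining 23 members had fewer than 10 counts. Those with 1 to 9 counts were Hist1h1t, Hist1h2ab, Hist1h2ad, Hist1h2af, Hist1h2ah, Hist2h2ab, Hist1h2bf, Hist1h2bl, Hist1h2bp, Hist3h2bb-ps, Hist1h3b, Hist1h3d, Hist1h4j and Hist1h4m. The 9 genes listed at 0 in every library were Hist2h2aa1, Hist2h2aa2, Hist1h2ao, Hist1h2ap, Hist1h2bq, Hist1h2br, Hist1h4n, Hist1h2aa and Hist1h2ba. A count of 0 allows up to 0.112 to 0.196 CPM per library at 3 counts.
Near-identical copies moved with how many reads a member had. The median share of unique 50-base words was 74.5% in tested members and 47.7% in those of 10 or more counts below the level tested. It was 32.9% in all members with fewer than 10 counts, and 6.93% in those of them at 0. A word was unique when no other annotated gene held it, apart from genes outside the family whose models overlap the member's. Hist2h2aa2 has no unique word. Of the genes at 0, Hist1h2aa and Hist1h2ba are known for the testis, and 97.7% and 61.8% of their words are unique. How reads that map to several genes were counted is not given in the sources used here.

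Promoter sequences were matched to 62 members from RefSeq (GRCm38.p6) as 250 bases before and 50 after each gene's start. The letters of 4 motifs were searched on both strands. CCAAT, the box bound by the factor NF-Y, was in 53 of the 62 windows, against 37.4% of all 32851 promoters. It was in all 6 H1, 18 H2A, 16 H2B and 10 H3 windows and in 3 of 12 H4 windows. TATAAA, a form of the TATA box, was in 35 windows, against 13.6% of all promoters. The octamer ATTTGCAT, the letters that Oct-1 is known to bind, was in 7 H2A and 7 H2B windows and in no window of the other classes, against 1.74% of all promoters. Windows of H2A and H2B genes that lie head to head, described below, share bases. A single match can thus count in both an H2A and an H2B window, and these counts are not independent. The E2F form TTTGGCGC was in none, against 0.514% of all promoters. The letters of these motifs can overlap by no more than a few bases, and a match is a description of the sequence alone.

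The 250 bases before the start are shown for 3 genes that rose, of classes H1, H2B and H4. Capitals mark CCAAT or its reverse complement ATTGG and TATAAA, and all 3 lie on the + strand.
Hist1h1c, chr13:23738557-23738806: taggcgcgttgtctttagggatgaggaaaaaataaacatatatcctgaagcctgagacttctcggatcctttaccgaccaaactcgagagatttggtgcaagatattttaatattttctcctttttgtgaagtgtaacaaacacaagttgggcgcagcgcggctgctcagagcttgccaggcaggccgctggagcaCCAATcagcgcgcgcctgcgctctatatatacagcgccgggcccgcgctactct
Hist1h2bj, chr13:22042948-22043197: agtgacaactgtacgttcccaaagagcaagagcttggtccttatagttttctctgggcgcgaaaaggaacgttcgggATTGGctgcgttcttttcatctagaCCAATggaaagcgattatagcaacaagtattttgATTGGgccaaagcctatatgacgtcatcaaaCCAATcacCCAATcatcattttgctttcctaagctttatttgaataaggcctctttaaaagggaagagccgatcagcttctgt
Hist1h4d, chr13:23581318-23581567: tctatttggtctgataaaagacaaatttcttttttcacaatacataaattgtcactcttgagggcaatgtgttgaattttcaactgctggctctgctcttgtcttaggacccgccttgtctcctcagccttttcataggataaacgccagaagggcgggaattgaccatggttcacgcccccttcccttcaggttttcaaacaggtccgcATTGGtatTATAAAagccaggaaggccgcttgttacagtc
Hist1h1c holds 1 CCAAT box, which begins 54 bases before the start. Hist1h2bj holds 5, from 173 to 75 bases before the start. Hist1h4d is 1 of the 3 H4 genes with the box, on the minus strand at 40 bases, beside a TATA box at 32 bases.

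Many H2A and H2B genes lie head to head and share the stretch between their starts. There were 13 such pairs, with gaps of 172 to 305 bases between gene models. Hist1h2ag and Hist1h2bj, 269 bases apart, had 27 and 96 counts in TCM libraries, against 5 and 35 counts in FCM libraries. In Hist3h2bb-ps and Hist3h2a, 172 bases apart, the pseudogene had 1 count in TCM and 4 in FCM libraries, while Hist3h2a had 1296 in TCM and 1047 in FCM libraries. In Hist2h2ac and Hist2h2be, 238 bases apart, Hist2h2ac had 45 counts in TCM and 37 in FCM libraries, and Hist2h2be had 185 in TCM and 321 in FCM libraries. In these 3 pairs the partners differed in counts, while 3 of the 13 pairs had 0 counts in both partners. No test of pairs was run.

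The genes that make, hold and degrade histone mRNA went both ways. Of 23 genes for histone mRNA processing and decay, 4 rose, 9 fell and 10 did not pass the test, with a median log2 fold change of -0.29. Among all genes tested, 28.8% were called higher and 30.0% lower. Slbp, the hairpin binding protein, had 40.6 ± 5.83 CPM in TCM libraries and 31.3 ± 5.07 CPM in FCM libraries (SD, n = 3 each), a log2 fold change of 0.38 ± 0.16 (SE, adjusted p = 0.0626). Npat, which activates histone transcription at the clusters, fell (log2 fold change -0.42, adjusted p = 0.0423), as did Casp8ap2, also called FLASH (-0.47, adjusted p = 0.0131). Of the U7 particle, which guides the cut after the hairpin, Lsm10 rose (0.57, adjusted p = 0.00841) and Lsm11 had a log2 fold change of 0.11 (adjusted p = 0.416). Zfp473, a U7-associated zinc finger protein, had a log2 fold change of 0.40 (adjusted p = 0.466), and the exonuclease Eri1, which trims the histone mRNA end, had one of -0.09 (adjusted p = 0.597). The smallest p-values of the list were those of the uridyl transferase Zcchc6 (log2 fold change -0.72, adjusted p = 0.000594), the endonuclease Cpsf3 (-0.70, adjusted p = 0.000971) and the decay factor Lsm1 (0.98, adjusted p = 0.00135).

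Replacement and variant histones, which are made outside S phase as well and mostly from polyadenylated mRNAs, rose in part. Of 10 tested genes 6 rose, none fell and 4 did not pass the test, at a median log2 fold change of 0.50. The whole table had 28.8% of tested genes higher and 30.0% lower. H2afj had the highest value, 1.27 ± 0.19 (SE, adjusted p = 0.000489), with 178 ± 40.4 CPM in TCM libraries and 73.5 ± 7.05 CPM in FCM libraries (SD, n = 3 each). The linker variant H1f0 rose as well (log2 fold change 0.90, adjusted p = 0.00272), as did the macroH2A gene H2afy (0.44, adjusted p = 0.0218). H2afx, whose gene carries the hairpin, had a log2 fold change of 0.07 (adjusted p = 0.788). The difference between this list and the clustered genes was not tested.

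Histone chaperones went both ways. Of 25 genes 7 rose, 9 fell and 9 did not pass the test, with a median log2 fold change of 0.08. The whole table went both ways too, with 28.8% of tested genes higher and 30.0% lower. Chaf1b, a subunit of the factor CAF-1 that deposits H3 and H4 behind the replication fork, rose (log2 fold change 1.70, adjusted p = 5.05e-06). Asf1b, which carries H3 and H4, rose (log2 fold change 1.73, adjusted p = 1.8e-05). Daxx, which deposits the variant H3.3, fell (log2 fold change -1.10, adjusted p = 0.000159). Cabin1 and Hira of the HIRA complex, the other H3.3 route, also fell, at -0.96 (adjusted p = 0.000329) and -0.34 (adjusted p = 0.0461). Nasp of the same list fell as well, at -0.36 (adjusted p = 0.0319). The H3.3 genes H3f3b and H3f3a had log2 fold changes of 0.57 (adjusted p = 0.0325) and 0.48 (adjusted p = 0.126).

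Genes of S phase and DNA synthesis rose in most cases. Of 38 genes 26 rose, none fell and 12 did not pass the test, with a median log2 fold change of 1.07. Beside this, 28.8% of all genes tested rose and 30.0% fell. Among those with the smallest p-values were the nucleotide enzymes Rrm2 (log2 fold change 3.02, adjusted p = 5.76e-07) and Tyms (2.40, adjusted p = 8.32e-07). Rrm2 had 79.1 ± 3.37 CPM in TCM libraries and 9.72 ± 1.22 CPM in FCM libraries (SD, n = 3 each). The summed CPM of the list were 2001 to 2205 in TCM libraries and 1142 to 1192 in FCM libraries.

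**Figure D5:**
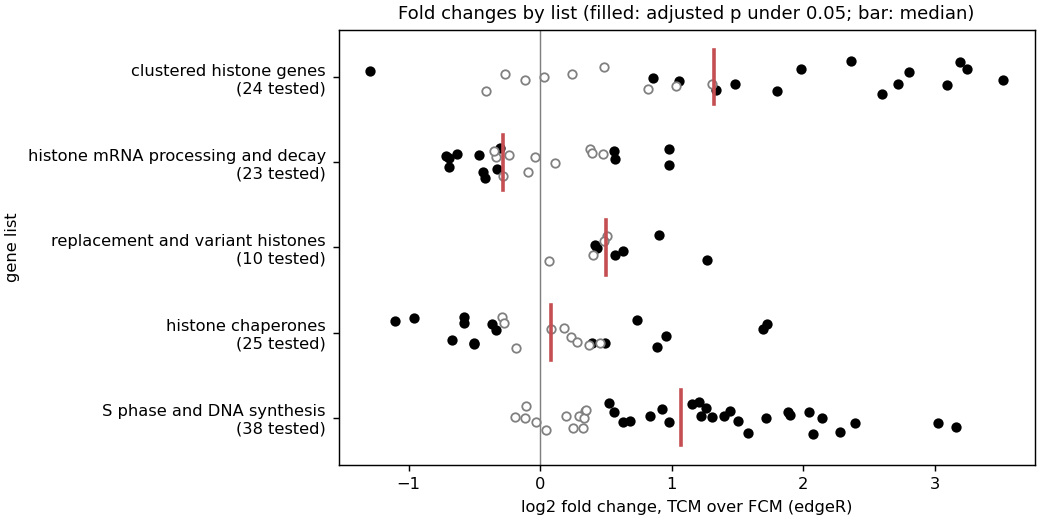
Log2 fold change of TCM over FCM from edgeR for each tested gene of 5 lists, filled where the adjusted p was under 0.05, with the median of each list as a bar. The median is 1.32 for the clustered histone genes, -0.29 for histone mRNA processing and decay, 0.50 for replacement and variant histones, 0.08 for chaperones and 1.07 for S phase genes.

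Markers of other cells of the spleen moved with the groups as well, and their part in the histone values was not tested. For comparison, 30.0% of all genes tested fell and 28.8% rose. Of 11 neutrophil markers 10 fell and none rose, and their summed level was 1519 to 2617 CPM in TCM libraries, against 8607 to 13240 CPM in FCM libraries. Of 9 macrophage and monocyte markers 8 fell and 1 rose, with 138 to 184 CPM in TCM libraries against 635 to 672 CPM in FCM libraries. Of 7 B cell markers 5 fell, with 1007 to 1211 CPM in TCM libraries against 1807 to 2188 CPM in FCM libraries. Dendritic cell markers (3 of 5 fell, Cd209a at 0), NK cell markers (4 of 5 fell, Klra4 at 0) and erythroid and platelet markers (5 of 7 fell) had sums of at most 26.8 CPM in TCM libraries and 65.8 CPM in FCM libraries. T cell markers, which the labelled cells should hold, summed to 775 to 892 CPM in TCM libraries and 780 to 883 CPM in FCM libraries. Of 8 T cell markers Cd3d rose, Cd8a and Zap70 fell and 5 did not pass the test. Cd8a, the coreceptor of the labelled cells, had 69.7 ± 3.12 CPM in TCM libraries and 111 ± 2.20 CPM in FCM libraries (SD, n = 3 each).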

How the data were processed

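RNA from 6 mouse splenocyte cultures, 3 TCM and 3 FCM, was analysed from 2 tables. Values tested are raw exon read counts by gene symbol, from the count table the authors deposited. The second deposited table holds a signal, in which the authors scaled each library's counts by its size factor, and it served to check the titles. Whole reads were recovered for 100% of its values at a tolerance of 0.1 reads. The tools STAR (2.7.2d) and DESeq2 (1.28.1) and the build mm10 are named, without roles, per the submitters' processing notes. Annotation, strand, counting tool and treatment of reads with several matches are not given there, so reads of overlapping or near-identical genes cannot be told apart.

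The 92 spike-in rows held 0 counts and were left out. edgeR 4.0.16 (R 4.3.3) kept genes with filterByExpr, scaled with TMM and ran the quasi-likelihood test with the group as sole term, with p-values of 12423 genes adjusted by Benjamini-Hochberg. The standard error is the size of the log2 fold change divided by the square root of F. Depth limits precision for genes of few counts, and limits at 0 counts cover counting error only. The fit was tested on simulated data. Every tested member is given by its values, as is every other member with 10 or more counts that was called. The rest with 10 or more counts are named with the range of their summed counts. Other lists name the 3 called genes of smallest p and, for processing, 7 genes with a role specific to histone mRNA. Cabin1, Hira, Nasp, H3f3a, H3f3b and H2afx were added after their values were seen. The value of 1 gene that this rule names is not reported here. Members and lists were chosen with earlier results of these data known.

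The main fit did not pair the libraries, and replicate numbers were used as a block only in alternative fits. Deviations from the group means correlated across genes at 0.60, 0.15 and 0.36 between TCM and FCM libraries of the same number. TCM replicate 2 with FCM replicate 3 gave 0.27 and TCM replicate 3 with FCM replicate 2 gave 0.42, so this check sets replicate 1 apart and does not tell numbers 2 and 3 from each other. The labels do not say what a number stands for. The fit with the number as a block is given where it changes a call. Alternatives were 2 other scalings, Rn45s left out, 2 other filters, DESeq2 1.42.0, the block, removal of a trend on transcript length, each library left out, both replicate 1 libraries left out, and the reads of the normalized table under its own titles. The last was chosen after seeing the data.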

Additional observations from a re-analysis of the deposited data

How the results depend on the processing

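Of the 15 called histone genes, 14 passed the threshold with the same direction in all 16 settings that keep the count table's titles. The exception was Hist3h2ba, at an adjusted p of 0.126 with the length trend removed, with and without the replicate block. Filters set the count of members higher, which was 14 of 24, 27 of 59 with no filter and 25 of 45 with 10 or more counts. Of all tested genes, 28.8%, 22.5% and 26.5% were higher in these settings. The count lower was 1, and 2 with the length trend removed or 3 with the block added. Of all tested genes 30.0% were lower in the main fit, 29.1% with the length trend removed and 35.3% with the block added. Without both replicate 1 libraries, 20 of 28 members rose, among them Hist1h1d, Hist1h1e and Hist2h2ac, and 1 fell, while 9337 genes (74.2%) were called in all. The replicate block alone gave 18 of 24 members higher and 1 lower. It called 9103 genes in all (73.3%), 36.3% higher and 37.0% lower. Leaving out 1 library at a time gave 14 to 20 members higher, 1 lower and 5696 to 8229 genes called. The number of members tested changed too, to 28 without FCM replicate 1. Calls over the whole table moved with the setting, so member counts of different settings are not compared. Reads of the normalized table under its own titles gave 1 higher and 14 lower, by construction. Library totals called 6329 genes, 19.0% of all tested genes higher in TCM.

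Directions turned round in 3 genes that were called in none of the settings concerned. The log2 fold change of Hist1h2be, 0.03, was -0.20 with library totals, -0.075 with the length trend removed and -0.055 with the block added, and -0.19, -0.059 and -0.30 without FCM replicate 1, TCM replicate 2 and TCM replicate 3. Hist1h1b was -0.43 in both length settings. Hist2h2bb was 0.01 without FCM replicate 3, 0.38 without TCM replicate 1 and 0.31 without both replicate 1 libraries. The cause was not tested. Members with few counts, many shared words or overlapping models are limited most by depth and by the unstated treatment of reads with several matches.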
